A study of Mus musculus with 24 samples.

Results

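Expression of 8 genes of the transforming growth factor beta (TGF-beta) pathway was followed through sorted cells of tumor-bearing mice treated with the SMAC mimetic LCL161 or with vehicle. The genes were Tgfb1, Itgb8, Tgfbr1, Tgfbr2, Smad3, Smad7, Skil and Tgif1, taken by symbol from a table of 55025 gene symbols, and all 8 were found. All 8 passed the filter on low counts, Itgb8 through its spleen CD4 libraries alone. Cells were sorted as CD45+CD4+ or CD45+CD8+ from the tumor or the spleen, which with the 2 treatments gives 8 groups of 3 libraries, 24 libraries in all. Treated mice received 3 doses of LCL161 (75 mg/kg by oral gavage), the first on day 4 and each later one after 3 more days, and the other mice vehicle alone. Tissue was taken on day 12. Every mouse in both arms was TCR alpha-/- and carried an orthotopic pancreatic tumor grown from M8 organoids, and no wild-type mice and no second tumor line were used. Mice without the T cell receptor alpha chain lack conventional alpha beta T cells and keep gamma delta T cells. Neither age nor sex of the mice is stated by the labels.

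TGF-beta is secreted in a latent complex, from which integrins that pair the alpha v chain with beta 8 (Itgb8) or beta 6 release the active ligand. The ligand binds the type II receptor (Tgfbr2), which recruits and activates the kinase of the type I receptor (Tgfbr1). That kinase phosphorylates the transcription factors SMAD2 and SMAD3. SMAD7 blocks the receptor, while SKIL (SnoN) and TGIF1 repress SMAD target genes in the nucleus. In T cells the pathway is known to restrain effector function, to favour regulatory and tissue-resident programs and to induce Itgae. LCL161 mimics the protein SMAC and causes loss of the ubiquitin ligases cIAP1 and cIAP2, which releases alternative NF-kB signaling.

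Library totals ran from 15455728 to 25145426 counts. Levels are CPM, counts relative to the TMM-scaled library size, and a log2 fold change is given with its standard error. Differences were called at an adjusted p under 0.05 in edgeR's quasi-likelihood test over 20174 genes. The labels do not say that replicates came from separate mice, so p-values measure the spread between these libraries. The sort was visible in the counts. Markers of the CD8 lineage (Cd8a, Cd8b1 and Runx3) summed to 1120 to 2403 CPM in CD8-sorted libraries and 74.0 to 231.7 CPM in CD4-sorted libraries. Markers of the CD4 lineage (Cd4, Cd40lg and Zbtb7b) summed to 11.2 to 38.7 CPM in CD8-sorted libraries and 833.1 to 1626 CPM in CD4-sorted libraries. All 8 T cell receptor and CD3 genes examined were detected in every group. Among them Trac, the constant region of the disrupted receptor chain, had group means of 10.3 to 25.6 CPM in CD8-sorted and 328.3 to 730.6 CPM in CD4-sorted groups, which without wild-type mice does not check the genotype. Markers of other cells were present too. The 11 macrophage markers summed to 734.5 to 8064 CPM in tumor libraries and 113.4 to 439.7 CPM in spleen libraries. The 7 B cell markers summed to 17.3 to 247.3 CPM in tumor and 778.2 to 2280 CPM in spleen. The 8 conventional dendritic cell markers summed to 1756 to 1964 CPM in the vehicle-treated spleen CD8 group and to at most 631.3 CPM in any other library. No marker of these 3 cell types was at 0 in any group. In bulk RNA of this kind, fewer cells of a type and less RNA per cell cannot be told apart.

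Promoter windows of 250 bases before to 50 after an annotated start site are shown for the 3 genes on which most of the results below turn: Tgif1, the member that rose most often with LCL161, Tgfb1, which fell in one population, and Itgb8, which was found in one population. For Tgif1 the window of the most upstream of its start sites is shown. They are RefSeq sequences of build GRCm38.p6, 5′ to 3′ on the strand of the gene. Capitals mark CAGACA, the core of the CAGA box that SMAD3 and SMAD4 are known to bind, searched on both strands.
Tgif1, chr17:70853483-70853782, minus strand: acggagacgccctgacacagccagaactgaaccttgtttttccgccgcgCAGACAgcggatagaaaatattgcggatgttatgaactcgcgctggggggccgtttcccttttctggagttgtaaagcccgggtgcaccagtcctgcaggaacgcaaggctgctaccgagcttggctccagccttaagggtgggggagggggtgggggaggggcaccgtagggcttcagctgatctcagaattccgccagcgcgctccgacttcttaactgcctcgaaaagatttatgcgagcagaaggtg
Tgfb1, chr7:25686752-25687051, plus strand: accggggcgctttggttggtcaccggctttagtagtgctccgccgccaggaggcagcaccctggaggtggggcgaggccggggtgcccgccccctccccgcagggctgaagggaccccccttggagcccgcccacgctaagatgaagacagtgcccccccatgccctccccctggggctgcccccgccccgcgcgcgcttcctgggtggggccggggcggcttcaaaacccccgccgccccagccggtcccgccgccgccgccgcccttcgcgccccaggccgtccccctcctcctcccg
Itgb8, chr12:119238227-119238526, minus strand: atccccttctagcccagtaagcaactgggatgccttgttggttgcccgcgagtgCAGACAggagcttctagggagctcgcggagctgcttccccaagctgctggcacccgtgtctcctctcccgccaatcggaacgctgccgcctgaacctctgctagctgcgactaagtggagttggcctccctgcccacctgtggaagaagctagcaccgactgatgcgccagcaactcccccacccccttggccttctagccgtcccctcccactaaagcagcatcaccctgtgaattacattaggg
CAGACA begins at position -201 from the start site in this Tgif1 window and at -196 in Itgb8, and these letters are not in the Tgfb1 window. Of 32851 promoter windows of this length, 21.0% hold CAGACA. RefSeq lists 11 windows for 6 of the 8 genes, 5 of them for Tgif1. Of these 5, 2 hold CAGACA, the window shown included, as does a window of Tgfbr1. The palindrome GTCTAGAC, held by 0.213% of all windows, and a kB-like motif of the kind NF-kB is known to bind (GGG, any 2 bases, TTTCC), held by 1.63%, are in none of the 11. CTGTCA, the core known to bind TGIF proteins, is held by 19.2% of all windows and by 2 of the 5 Tgif1 windows. It does not overlap the CAGACA letters in any of the 11. The genes lie at chromosome 17, 70844205 to 70853546 (Tgif1), chromosome 7, 25687002 to 25705077 (Tgfb1) and chromosome 12, 119158022 to 119238802 (Itgb8) in GENCODE M21 on GRCm38. No member overlaps another annotated gene.

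Per kilobase of merged exon, Tgfbr2 was the most abundant of the 8 in every group, with group means of 32.1 to 64.4 CPM per kb. Tgfb1 was second in every group (16.3 to 40.9 CPM per kb) and Smad3 came next (11.6 to 19.3 CPM per kb). Smad7, Skil, Tgfbr1 and Tgif1 lay between 4.37 and 19.0 CPM per kb, in an order that varied between groups. Itgb8 was lowest throughout, at most 4.37 CPM per kb. The ligand-binding receptor chain and the ligand were thus the members with most counts per kb in all 8 groups.

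**Figure D1:**
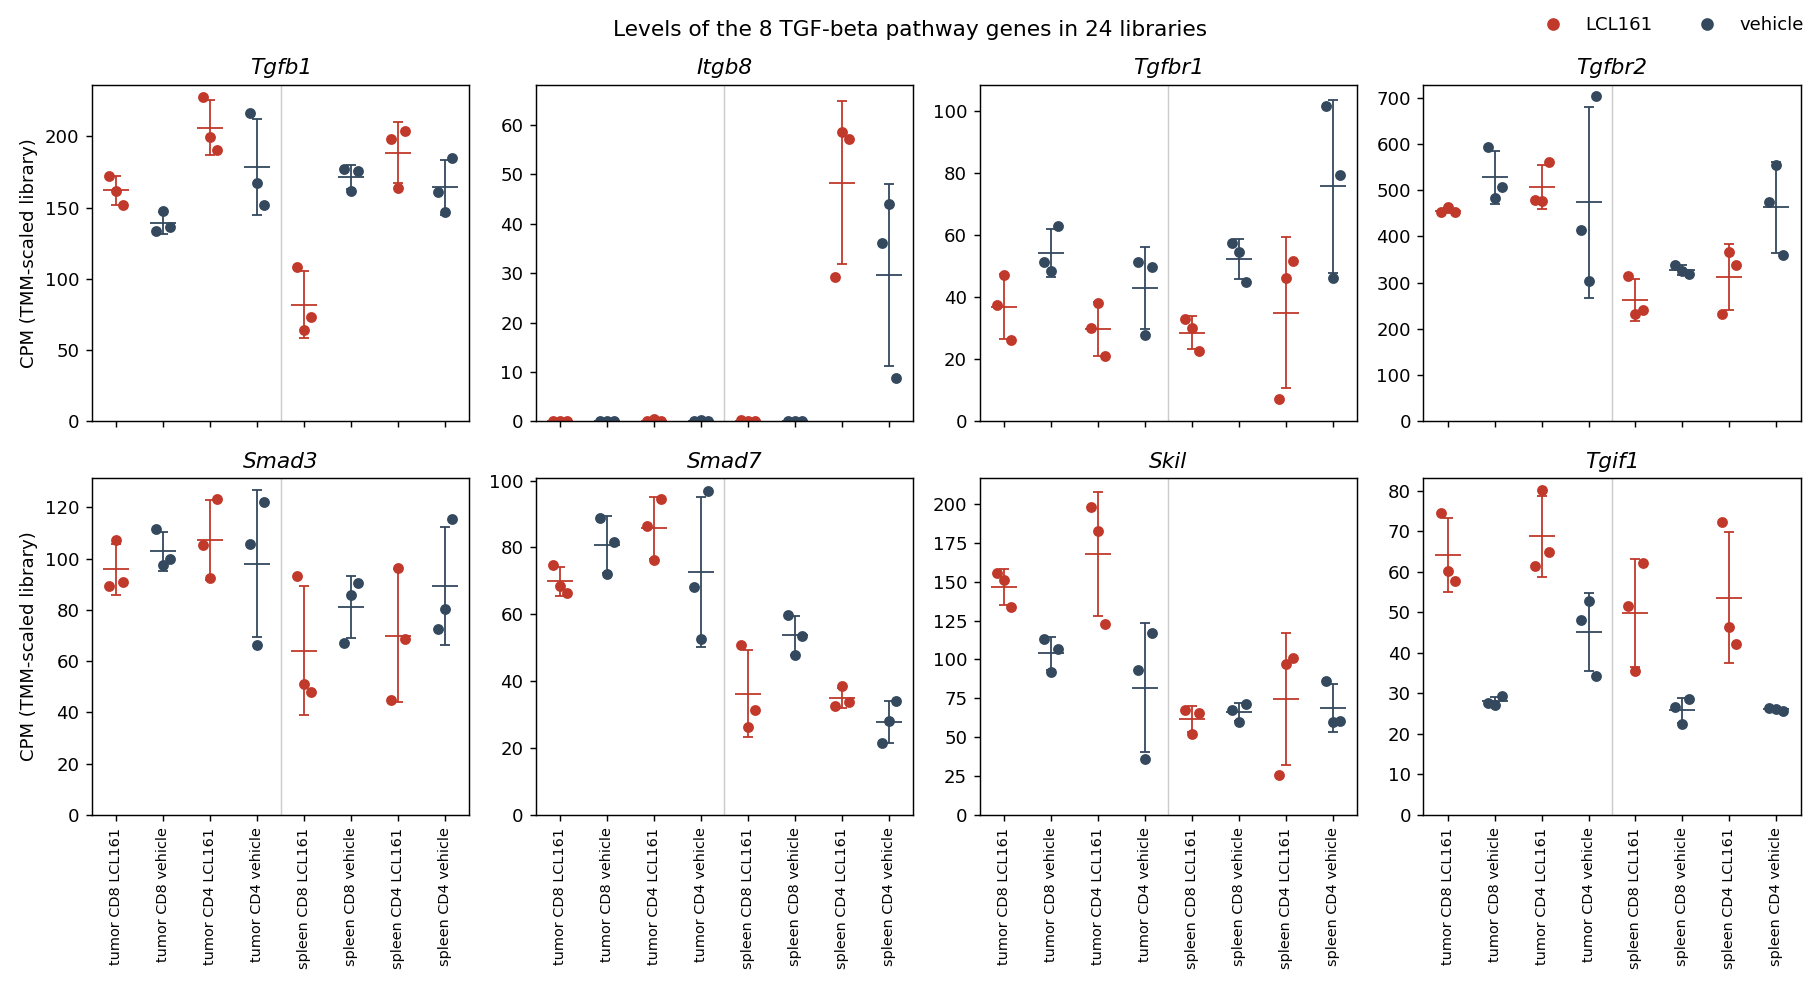
CPM of each of the 8 genes (vertical axes, starting at 0) in the 24 libraries, by group; points are libraries, horizontal lines and bars the mean ± SD (n = 3), red LCL161 and dark blue vehicle. Tgif1 is higher in LCL161 than in vehicle libraries in all 4 populations, Tgfb1 is lowest in LCL161-treated spleen CD8 cells, and Itgb8 is present in spleen CD4 cells.

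To ask what LCL161 does to the pathway, each population from treated mice was compared with the same population from vehicle mice. The corepressor gene Tgif1 was the most regular change: it rose in spleen CD4, spleen CD8 and tumor CD8 cells. The ligand gene Tgfb1 fell in spleen CD8 cells. No other member passed the test in a single population. The members called were 1 of 8 in spleen CD4, where 0.431% of all genes were called, 2 of 8 in spleen CD8 (8.28% of all genes), 0 of 8 in tumor CD4 (0.322%) and 1 of 8 in tumor CD8 (0.248%). In tumor CD4 edgeR's test called none, DESeq2 also called none, and 2 members had an unadjusted p under 0.05. Members whose LCL161 and vehicle libraries did not overlap were 1 of 8 in spleen CD4 (14.6% of all genes), 4 of 8 in spleen CD8 (38.9%), 2 of 8 in tumor CD4 (15.2%) and 5 of 8 in tumor CD8 (23.5%). Averaged over the 4 populations, LCL161 raised Tgif1 and lowered Tgfbr1, 2 of 8 members, where 18.7% of all genes were called.

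Tgif1 encodes a homeodomain corepressor that binds SMAD complexes. In spleen CD4 cells it had 72.3, 46.4 and 42.3 CPM in LCL161 libraries, against 26.4, 26.1 and 25.7 CPM in vehicle libraries. All LCL161 libraries lay above all vehicle libraries, and Tgif1 was 2.06-fold higher (log2 fold change 1.04 ± 0.21, adjusted p = 0.0384). In spleen CD8 cells it had 51.7, 35.6 and 62.1 CPM with LCL161 and 26.6, 22.5 and 28.5 CPM with vehicle (0.94 ± 0.21, adjusted p = 0.0113). In tumor CD8 cells it had 74.6, 60.3 and 57.7 CPM with LCL161, against 27.6, 27.2 and 29.2 CPM with vehicle (1.20 ± 0.21, adjusted p = 0.0224). These 2 pairs of groups did not overlap either. Tumor CD4 libraries held 61.3, 80.2 and 64.8 CPM with LCL161 and 48.1, 52.8 and 34.3 CPM with vehicle, again without overlap. There the difference did not pass (0.61 ± 0.21, 95% interval 0.17 to 1.05, adjusted p = 0.183), and the vehicle level was already the highest of the 4 populations. The vehicle groups of the other 3 populations all averaged between 25.9 and 28.0 CPM. Whether the effect itself differed between populations was tested, and it did not pass for tumor CD8 minus CD4 (0.59 ± 0.30, adjusted p = 0.903) or tumor minus spleen CD4 (-0.43 ± 0.30, adjusted p = 0.607).

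The mean effect of LCL161 on Tgif1 over the 4 populations was 0.95 ± 0.11 on the log2 scale, 1.93-fold (adjusted p = 2.7e-05). It passed in all 24 fits that left out 1 library, between 0.87 and 0.99. The single-population calls were less firm. In spleen CD4 Tgif1 no longer passed without LCL161 replicate 1 (0.76, adjusted p = 0.174) or without vehicle replicate 1, 2 or 3 (1.02 to 1.04, adjusted p 0.0543 to 0.155). It did not pass there without the filter on low counts (adjusted p = 0.0515), with the replicate number as a block (adjusted p = 0.0512) or with only the groups compared (adjusted p = 0.478), each at 1.03. In spleen CD8 it did not pass without LCL161 replicate 3 (0.74, adjusted p = 0.114), vehicle replicate 1 (0.94, adjusted p = 0.0533) or vehicle replicate 2 (0.83, adjusted p = 0.0622). In tumor CD8 the call was lost in 5 of 6 such fits, all but the one without LCL161 replicate 3, with values of 1.06 to 1.23. The summed markers of macrophages moved with treatment in the tumor, at 792.4 to 1817 CPM with LCL161 and 3298 to 8064 CPM with vehicle in CD4 libraries, and 734.5 to 1256 CPM with LCL161 and 1787 to 2614 CPM with vehicle in CD8 libraries. The summed markers of macrophages, conventional dendritic cells and B cells were also used as covariates, an alternative chosen after the data were seen. With them the mean effect on Tgif1 was 0.92 ± 0.18 and passed (adjusted p = 0.0134). The calls in spleen CD4, spleen CD8 and tumor CD8 did not pass (0.98, 0.81 and 1.31, adjusted p 0.148, 0.326 and 0.376). The part of these cells in the Tgif1 differences was not tested beyond this fit.

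**Figure D2:**
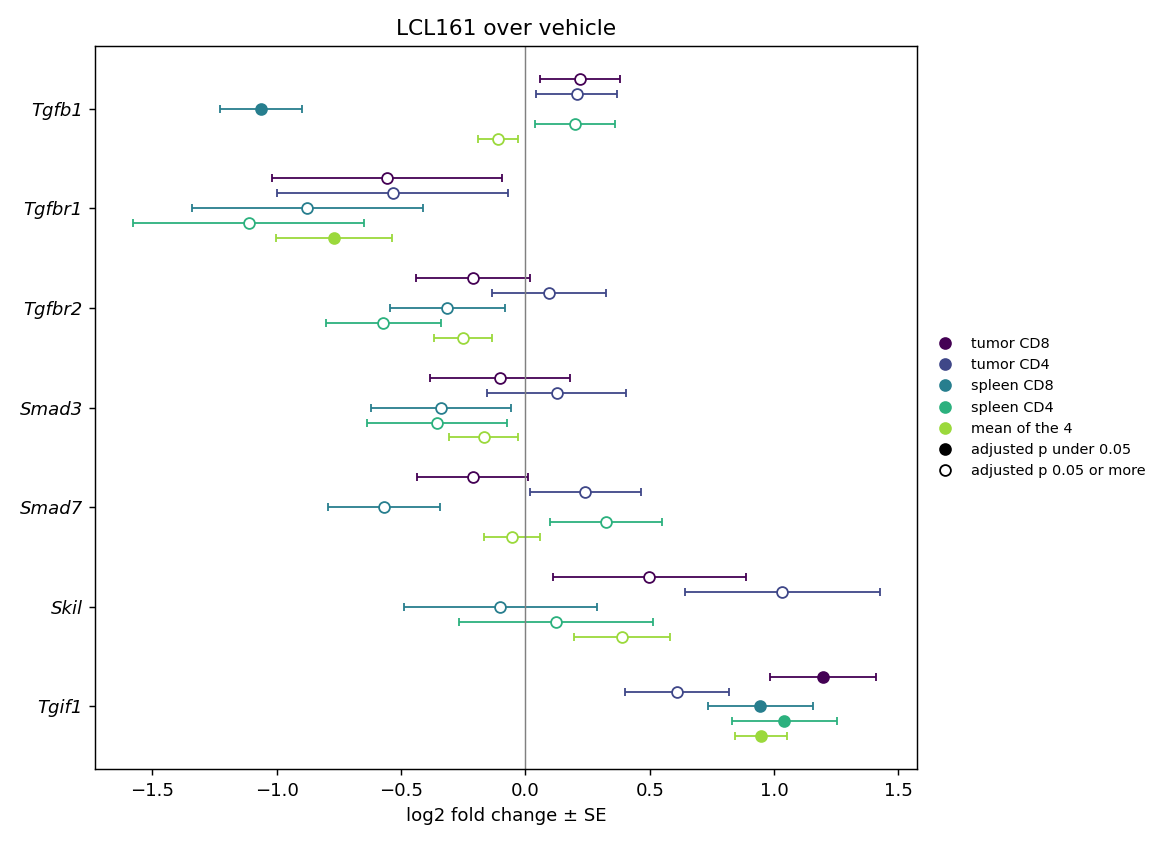
Log2 fold change of LCL161 over vehicle (horizontal axis) ± SE for 7 members, in each of the 4 populations and as their mean; filled points passed an adjusted p of 0.05 and open points did not. All 5 values of Tgif1 lie between 0.61 and 1.20, the Tgfb1 value of spleen CD8 lies at -1.06 apart from the other populations, and all 5 values of Tgfbr1 are negative. Itgb8, near 0 counts in 6 groups, is left out.

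Skil, the other nuclear repressor among the members, had 198.1, 182.4 and 122.8 CPM in tumor CD4 cells with LCL161 and 93.4, 35.6 and 116.8 CPM with vehicle. The libraries did not overlap, but the difference did not pass (1.03 ± 0.39, 95% interval 0.21 to 1.85, adjusted p = 0.228). In tumor CD8 cells it had 155.6, 151.1 and 133.7 CPM with LCL161 and 113.1, 92.2 and 106.5 CPM with vehicle (0.50 ± 0.39, adjusted p = 0.708). Group means in spleen were 61.8 to 74.7 CPM, with the 2 treatments overlapping in both populations. Over the 4 populations the effect on Skil was 0.39 ± 0.19 (95% interval -0.02 to 0.80, adjusted p = 0.173). Without LCL161 replicate 1 of spleen CD4, where Skil was low, it passed (0.49, adjusted p = 0.0291).

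Tgfb1 encodes the TGF-beta isoform that predominates in immune cells. In spleen CD8 cells it had 108.3, 64.0 and 73.6 CPM with LCL161, against 176.9, 161.7 and 175.5 CPM with vehicle. The 2 groups did not overlap, and Tgfb1 was 2.09-fold lower (-1.06 ± 0.16, adjusted p = 0.00141). It passed in all 6 fits without 1 library, at -1.35 to -0.93. In the other 3 populations the difference was 0.20 to 0.22 and did not pass (adjusted p 0.551 to 0.687). Levels there were 198.2, 164.1 and 203.7 CPM with LCL161 and 160.8, 146.9 and 185.1 CPM with vehicle in spleen CD4, and 227.7, 199.7 and 190.7 CPM with LCL161 and 216.5, 167.5 and 151.9 CPM with vehicle in tumor CD4. Tumor CD8 cells had 172.5, 161.8 and 152.0 CPM with LCL161 and 133.6, 147.7 and 136.3 CPM with vehicle. Treated spleen CD8 cells were thus the group with the lowest Tgfb1 of all 8, apart from every other group, since the next lowest library held 133.6 CPM.

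The difference between the effects was itself tested. The LCL161 effect on Tgfb1 was 1.26 lower in spleen CD8 than in spleen CD4 cells on the log2 scale (-1.26 ± 0.23, adjusted p = 0.0262). Itgb8 was set aside here because of the filter. Of the other members Tgfb1 alone was called, where 0.292% of all genes were called. That call was lost in 9 of the 12 fits without 1 library, with values of -1.37 to -1.12 and adjusted p of 0.0514 to 0.11. It was kept without LCL161 replicate 1 of spleen CD8 and without LCL161 replicates 2 or 3 of spleen CD4. With only the groups compared it did not pass (-1.30 ± 0.27, adjusted p = 0.114). In CD8 cells the effect was 1.28 ± 0.23 higher in tumor than in spleen, which did not pass (adjusted p = 0.0646), so 0 of 8 members were called there against 0.0248% of all genes. One member, Tgfb1, had an unadjusted p under 0.05. It passed by DESeq2 (adjusted p = 0.000163), with the replicate number as a block (1.30 ± 0.21, adjusted p = 0.0334), with only the groups compared (1.31 ± 0.23, adjusted p = 0.0374) and without LCL161 replicate 1 of spleen CD8 (1.56, adjusted p = 0.00268), and in none of the other 11 fits without 1 library. With Itgb8 again set aside, no member differed in effect between tumor and spleen CD4 (0.00991% of all genes called). Between tumor CD8 and CD4 cells none of the 8 differed in effect (0% of all genes called). In both, edgeR's test and DESeq2 called 0 members and no member had an unadjusted p under 0.05.

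Several measures moved together with Tgfb1 in spleen CD8 cells. The 8 conventional dendritic cell markers summed to 352.3 to 631.3 CPM with LCL161 and 1756 to 1964 CPM with vehicle, and 3 of the 8 were called lower. Xcr1, the chemokine receptor of cross-presenting dendritic cells, averaged 71.2 ± 53.9 CPM with LCL161 and 346.4 ± 18.3 CPM with vehicle. The B cell markers summed to 778.2 to 1152 CPM with LCL161 and 1151 to 1487 CPM with vehicle, and the share of counts from mitochondrial genes was 2.10% to 2.37% with LCL161 and 1.46% to 1.52% with vehicle. Endothelial markers summed to 54.6 to 77.5 CPM with LCL161 and 113.4 to 147.2 CPM with vehicle. T cell markers went the other way, at 3413 to 4549 CPM with LCL161 and 2364 to 2668 CPM with vehicle. With the macrophage, conventional dendritic cell and B cell sums as covariates the Tgfb1 value was -0.84 ± 0.27 and did not pass (adjusted p = 0.128). The part of these cells in the Tgfb1 difference was not tested beyond this fit, which left out the T cell and endothelial sums.

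**Figure D3:**
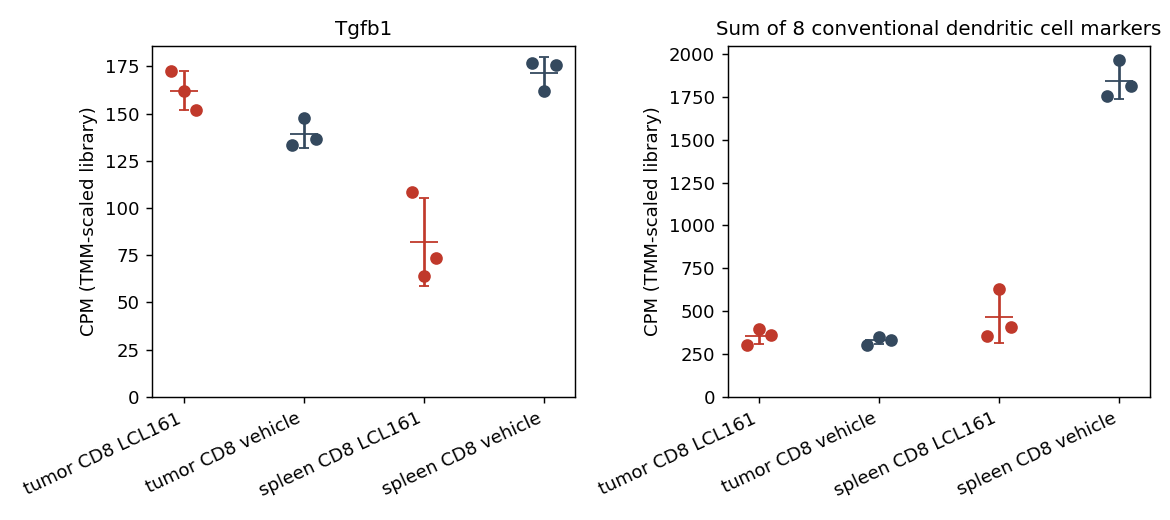
Tgfb1 (left) and the sum of 8 conventional dendritic cell markers (right) in CPM, both from 0, in the 12 CD8-sorted libraries; points are libraries, lines and bars the mean ± SD (n = 3), red LCL161 and dark blue vehicle. In spleen CD8 cells both measures are lower with LCL161, whereas in tumor CD8 cells the marker sums lie between 302.7 and 398.3 CPM in all 6 libraries.

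Of the receptors, Tgfbr1 encodes the kinase that signals. It had 33.0, 30.0 and 22.7 CPM in spleen CD8 cells with LCL161 and 57.5, 54.7 and 45.1 CPM with vehicle (-0.88 ± 0.47, adjusted p = 0.253). With only the groups compared this difference passed (-0.91 ± 0.17, adjusted p = 0.0242). Spleen CD4 cells held 7.17, 46.2 and 51.7 CPM with LCL161 and 101.7, 46.3 and 79.3 CPM with vehicle (-1.11 ± 0.47, adjusted p = 0.261). LCL161 replicate 1 of spleen CD4 stood far below its group there, and it was also low for Skil, at 25.9 CPM against 97.4 and 100.9 CPM in the other LCL161 libraries. In the tumor the differences were -0.53 ± 0.46 in CD4 and -0.56 ± 0.46 in CD8 cells, and neither passed (adjusted p = 0.658 and 0.736). Averaged over the 4 populations Tgfbr1 fell by 0.77 ± 0.23, 1.71-fold lower with LCL161 (adjusted p = 0.0274). Without the low spleen CD4 library the mean effect was -0.65 and it passed. It did not pass without vehicle replicate 1 of spleen CD4 (-0.71, adjusted p = 0.0536), LCL161 replicate 3 of spleen CD8 (-0.74, adjusted p = 0.0547) or LCL161 replicate 3 of tumor CD8 (-0.72, adjusted p = 0.0523). With the marker sums as covariates it was -0.57 ± 0.32 and did not pass (adjusted p = 0.386). The part of the marked cells in the Tgfbr1 difference was not tested beyond this fit.

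Tgfbr2, the chain that binds the ligand first, did not pass with LCL161 in any population, with values of -0.57 ± 0.23 in spleen CD4 to 0.10 ± 0.23 in tumor CD4 (adjusted p 0.247 to 0.907) and a mean effect of -0.25 ± 0.12 (adjusted p = 0.139). Without vehicle replicate 2 of tumor CD4 the mean effect passed (-0.32, adjusted p = 0.0379). Between tissues it was called with LCL161, in both populations by a small margin. In LCL161-treated mice it had 479.8, 477.6 and 561.6 CPM in tumor CD4 cells, against 231.2, 366.4 and 337.5 CPM in spleen CD4 cells (0.70 ± 0.23, adjusted p = 0.0382). Tumor CD8 cells held 452.3, 462.6 and 453.1 CPM and spleen CD8 cells 315.1, 233.2 and 241.1 CPM with LCL161 (0.79 ± 0.23, adjusted p = 0.0406). Neither pair overlapped. Each call was lost in 5 of 6 fits without 1 library, at 0.51 to 0.83 in CD4 cells, all but the fit without spleen CD4 replicate 2, and at 0.71 to 0.95 in CD8 cells, all but the fit without spleen CD8 replicate 1. With the replicate block neither passed (0.70, adjusted p = 0.0521 in CD4 and 0.79, adjusted p = 0.0555 in CD8). In vehicle mice Tgfbr2 had 592.4, 483.7 and 506.7 CPM in tumor CD8 cells and 338.3, 324.4 and 319.0 CPM in spleen CD8 cells, which did not pass (0.69 ± 0.23, adjusted p = 0.0526), but passed by DESeq2 (adjusted p = 0.0304) and with only the groups compared (0.67 ± 0.08, adjusted p = 0.00175). The vehicle CD4 libraries overlapped widely, at 414.9, 303.5 and 703.3 CPM in tumor and 475.0, 555.1 and 358.8 CPM in spleen (0.03 ± 0.23, adjusted p = 0.937).

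Smad7, a feedback inhibitor that TGF-beta itself induces, was called higher in tumor than in spleen in 3 of 4 comparisons. In vehicle mice CD4 cells had 68.0, 52.6 and 96.9 CPM in tumor, against 21.5, 28.1 and 34.0 CPM in spleen, 2.60-fold (1.38 ± 0.23, adjusted p = 0.000531). In LCL161-treated mice CD4 cells had 86.5, 76.1 and 94.5 CPM in tumor and 32.7, 38.4 and 33.6 CPM in spleen (1.30 ± 0.23, adjusted p = 0.00066). Treated CD8 cells had 74.8, 68.4 and 66.3 CPM in tumor and 50.9, 26.4 and 31.3 CPM in spleen (0.95 ± 0.23, adjusted p = 0.0157). All 3 pairs were without overlap, as were the vehicle CD8 libraries, at 88.9, 71.9 and 81.6 CPM in tumor and 59.7, 47.9 and 53.5 CPM in spleen, which did not pass (0.59 ± 0.22, adjusted p = 0.0859) except with only the groups compared (0.57 ± 0.11, adjusted p = 0.00916). Of all 20174 genes, 6263 did not overlap between the tissues in vehicle CD4 cells and 9636 in vehicle CD8 cells. With LCL161, 6606 did not overlap in CD4 cells and 6301 in CD8 cells. The CD4 calls of Smad7 were kept in all 6 fits without 1 library each, at 1.22 to 1.37 with LCL161 and 1.11 to 1.53 with vehicle. The LCL161 CD8 call was lost without spleen replicate 2 (0.76, adjusted p = 0.113), spleen replicate 3 (0.84, adjusted p = 0.0686) or tumor replicate 1 (0.89, adjusted p = 0.066), and with only the groups compared (0.94, adjusted p = 0.0539). In these 4 comparisons 9 or 10 of 11 macrophage markers were called higher in tumor, 9 in LCL161-treated CD4 cells and 10 in the others, and 7 of 7 B cell markers lower in each. Their part in the Smad7 differences was not tested. Among vehicle spleen libraries Smad7 was higher in CD8 than in CD4 cells (0.95 ± 0.23, adjusted p = 0.0102), a call lost without CD4 vehicle replicate 1 (0.80, adjusted p = 0.0636). With LCL161 the same 2 spleen populations differed by 0.05 ± 0.22 (95% interval -0.42 to 0.52, adjusted p = 0.901). Conventional dendritic cell markers summed to 1756 to 1964 CPM in spleen CD8 and 112.8 to 323.2 CPM in spleen CD4 with vehicle, with 6 of 8 called higher and 0 lower. With LCL161 these sums were 352.3 to 631.3 CPM and 82.9 to 190.1 CPM, with 3 of 8 called higher and 0 lower. The part of dendritic cells in these Smad7 values was not tested. Smad7 did not pass with LCL161 in any population, with values of -0.57 ± 0.22 in spleen CD8 to 0.33 ± 0.23 in spleen CD4. Without LCL161 replicate 1 of spleen CD8 it passed there (-0.93, adjusted p = 0.0133), and the effect was lower in spleen CD8 than in spleen CD4 cells (-1.25, adjusted p = 0.0342).

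Smad3, the transcription factor of the receptor pathway, passed in none of the 17 comparisons made with edgeR's test. Its group means ran from 64.1 ± 25.3 CPM in LCL161-treated spleen CD8 cells to 107.0 ± 15.6 CPM in LCL161-treated tumor CD4 cells, and each group's range overlapped that of the next in order. Its unadjusted p was under 0.05 in 1 of them, tumor over spleen in LCL161-treated CD4 cells (0.62 ± 0.28, adjusted p = 0.129). DESeq2 called Smad3 in none of the 17. Among fits without 1 library it passed in tumor over spleen with LCL161 without spleen CD4 replicate 2 (0.92, adjusted p = 0.0489) and, in CD8 cells, without spleen CD8 replicate 1 (0.96, adjusted p = 0.0447).

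Itgb8, which encodes the integrin chain that activates latent TGF-beta, was found in spleen CD4 cells. It had 29.2, 58.5 and 57.2 CPM with LCL161 and 36.1, 44.0 and 8.82 CPM with vehicle there. These groups overlapped (0.70 ± 0.61, adjusted p = 0.574). In the other 6 groups each library held at most 0.389 CPM. Summed over 3 libraries, the counts were 9 and 9 in LCL161 and vehicle tumor CD4 cells, 1 and 3 in tumor CD8 cells and 5 and 1 in spleen CD8 cells, against 3377 and 1800 in spleen CD4 cells. Since the spleen CD4 libraries alone brought it past the filter, its differences from them are given as counts and ratios and not as tests. From the summed counts, the ratio of spleen CD4 to tumor CD4 cells was 330 with LCL161 (exact 95% interval 173 to 722) and 219 with vehicle (115 to 479). These intervals cover counting error only. B cell markers summed to 778.2 to 1487 CPM in spleen CD8 libraries, 4 of which had no Itgb8 count, and to 1025 to 2280 CPM in spleen CD4 libraries. The regulatory T cell factor Foxp3 had 8.82, 188.6 and 2.93 CPM in spleen CD4 with LCL161 and 7.23, 42.1 and 3.49 CPM with vehicle. Replicate 2 stood apart for Foxp3 in both treatments. The part of B cells and of regulatory T cells in the Itgb8 levels was not tested.

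Between tissues, Itgb8 was set aside in CD4 cells for the reason above, and the other 7 members were counted. With vehicle, 2 of these 7 were called in CD4 cells, Smad7 and Tgif1, both higher in tumor, where 16.4% of all genes were called. Tgif1 was 1.73-fold higher (0.79 ± 0.21, adjusted p = 0.0162), a call lost without spleen replicate 1 or 3 or tumor replicate 1 or 2 (0.62 to 0.77, adjusted p 0.054 to 0.0924) and with only the groups compared (0.80, adjusted p = 0.0829). In vehicle CD8 cells 0 of 8 were called (14.8% of all genes), with 2 at an unadjusted p under 0.05, and DESeq2 called 1, Tgfbr2. With only the groups compared 4 were called, Smad7, Tgfbr2 and Skil (0.63 ± 0.10, adjusted p = 0.0046) higher in tumor and Tgfb1 lower (-0.32 ± 0.07, adjusted p = 0.0124). That fit called more genes of every kind, 5783 against 2986 in the main fit. With LCL161, 3 of the 7 were called in CD4 cells, Smad7, Skil and Tgfbr2, all higher in tumor (21.3% of all genes). Skil was 2.24-fold higher in tumor CD4 cells there (1.17 ± 0.39, adjusted p = 0.0409). That call was lost without spleen CD4 replicate 1 (0.75, adjusted p = 0.119), tumor replicate 1 (1.02, adjusted p = 0.129) or tumor replicate 2 (1.09, adjusted p = 0.0982), without the filter (adjusted p = 0.0578), with the replicate block (adjusted p = 0.055) and with only the groups compared (adjusted p = 0.211). Without spleen replicate 1 Tgif1 passed (0.62, adjusted p = 0.0469). In LCL161-treated CD8 cells 3 of 8 were called, Tgfb1, Smad7 and Tgfbr2, all higher (8.77% of all genes). Tgfb1 was 1.98-fold higher (0.98 ± 0.16, adjusted p = 0.00265), a comparison that uses the same low spleen CD8 libraries as above, and it passed in all 6 fits without 1 library (0.83 to 1.25). Skil passed there by DESeq2 (1.26, adjusted p = 0.0143) and with only the groups compared (1.24 ± 0.13, adjusted p = 0.0142). Replicate numbers paired the libraries of this comparison by the rule used here, and with the block 2 members were called, Tgfb1 and Smad7, or 4, with Tgfbr2 and Skil, when only its groups were fitted. These 2 fits called 1570 and 1418 genes. In LCL161-treated CD8 cells 10 of 11 macrophage markers were called higher and 7 of 7 B cell markers lower in tumor, whose part in these calls was not tested.

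**Figure D4:**
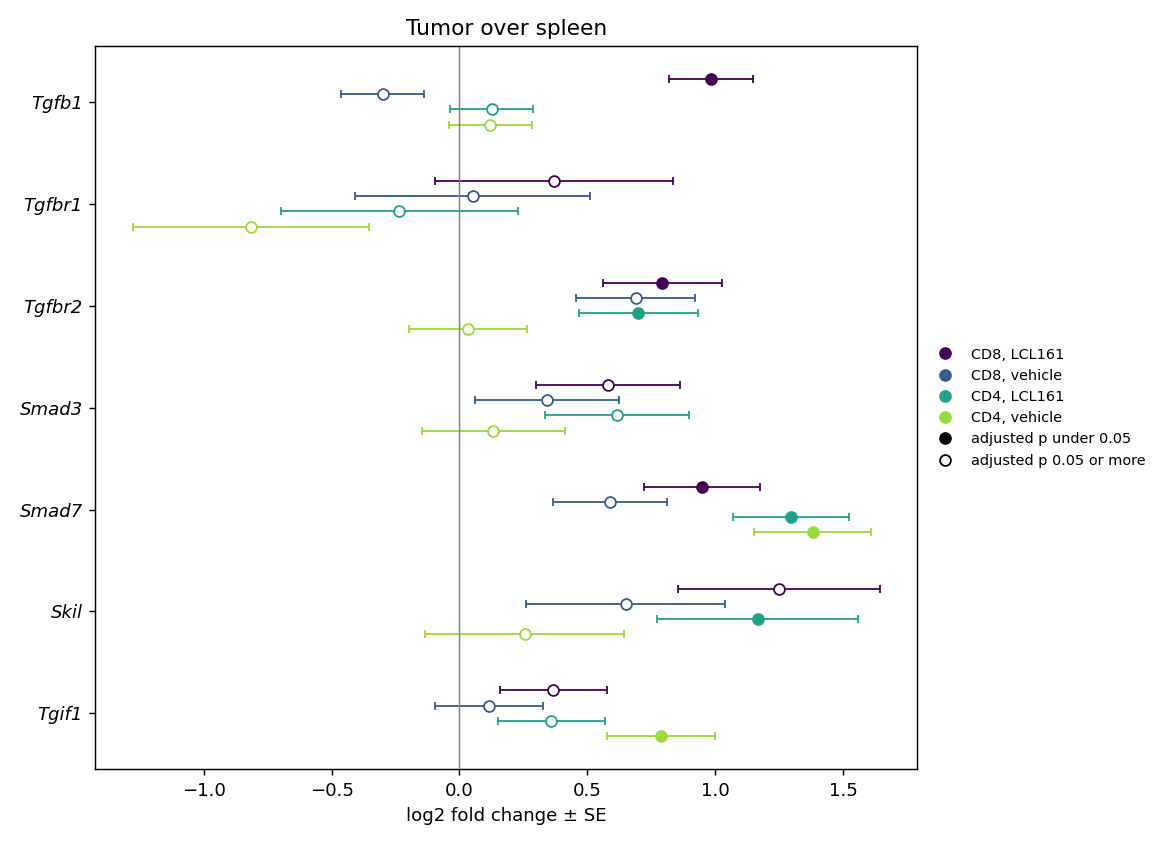
Log2 fold change of tumor over spleen (horizontal axis) ± SE for 7 members in CD8 and CD4 cells with LCL161 and with vehicle; filled points passed an adjusted p of 0.05 and open points did not. Smad7 is positive in all 4 and filled in 3, and the Tgfb1 value of LCL161-treated CD8 cells, 0.98, stands apart from its other 3. Itgb8 is left out, as in the plot of LCL161 effects.

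Between sorted populations of vehicle mice, 1 of the 7 members other than Itgb8 was called in spleen, Smad7, higher in CD8 than in CD4 cells (11.4% of all genes). In vehicle tumor 0 of 8 were called (4.07% of all genes), with 2 at an unadjusted p under 0.05, and DESeq2 called Tgif1 lower (-0.70, adjusted p = 0.0271), as did edgeR's test without CD4 replicate 3 (-0.85, adjusted p = 0.0336). With LCL161, Tgfb1 was lower in CD8 than in CD4 cells of the spleen, again 1 of the 7 (17.4% of all genes), by -1.20 ± 0.16 (adjusted p = 9.07e-05). In tumor with LCL161 0 of 8 were called (2.87% of all genes), and 1, Tgfb1, had an unadjusted p under 0.05. DESeq2 also called none. Of the pathway lists described next, Itga1 and Pmepa1 were higher in CD8 than in CD4 cells of the tumor with LCL161 and with vehicle, and Cdkn1a and Fkbp1a lower. The Pmepa1 calls were lost in 6 of 6 fits without 1 library with LCL161 and in 5 of 6 with vehicle, and that of Fkbp1a in 5 of 6 with LCL161.

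Other genes of the pathway were counted from 5 lists. Of 11 genes that make or activate the ligand, 6 rose in vehicle tumor CD4 cells relative to spleen, with a median of 2.37 on the log2 scale, beside a median of 0.00 and the 16.4% of calls over all genes. Thbs1, a matrix protein that activates latent TGF-beta, had 97.6, 185.4 and 228.8 CPM in tumor and 6.69, 9.21 and 6.81 CPM in spleen (4.49 ± 0.75, adjusted p = 0.00061). Ltbp3, one of the proteins that tether the latent complex, had 15.4, 37.4 and 6.94 CPM in tumor and 1.16, 2.63 and 0.739 CPM in spleen (adjusted p = 0.000416). Ltbp2 was detected in all 3 tumor libraries (3.18, 12.2 and 2.97 CPM) and had no count in spleen. Ltbp4 had 7.43, 21.9 and 5.50 CPM in tumor and at most 0.545 CPM in spleen. These genes moved with the macrophage markers, which summed to 3298 to 8064 CPM in the tumor CD4 vehicle libraries and 201.3 to 374.3 CPM in the matching spleen libraries, and the part of macrophages in them was not tested. The calls of Ltbp1, Furin and Ltbp4 were lost in 4, 4 and 2 of 6 fits without 1 library. In vehicle CD8 cells 4 of 11 rose (Thbs1, Ltbp3, Ltbp1 and Ltbp4) where 14.8% of all genes were called, Ltbp1 and Ltbp4 in 1 of 6 fits without 1 library, with macrophage sums of 1787 to 2614 CPM in tumor and 284.0 to 378.5 CPM in spleen.

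Of 10 genes known to be induced by TGF-beta, 5 rose in vehicle tumor CD4 cells and 3 in tumor CD8 cells, with medians of 1.82 and 1.05, where 16.4% and 14.8% of all genes were called. In both populations 10 of 11 macrophage markers were called higher in tumor, and their part was not tested. Cdkn1a, a cell cycle inhibitor, had 175.3, 146.1 and 79.6 CPM in tumor and 31.4, 17.7 and 27.7 CPM in spleen CD4 cells (2.38 ± 0.29, adjusted p = 3.17e-05). Tgfbi, a matrix protein named for its induction by TGF-beta, had 153.6, 225.5 and 116.1 CPM in tumor and 11.1, 1.78 and 16.4 CPM in spleen CD4 cells (4.08 ± 0.76, adjusted p = 0.00136). Itga1, a collagen receptor of resident T cells, had 108.6, 89.0 and 73.8 CPM in tumor and 13.1, 37.1 and 16.4 CPM in spleen CD8 cells (2.03 ± 0.52, adjusted p = 0.0122), a call lost without spleen replicate 1 or 3. Itgae, the integrin chain of resident T cells, did not pass in either. It had 41.1 to 152.8 CPM in vehicle tumor CD8 cells and 278.2 to 400.4 CPM in vehicle spleen CD8 cells (-1.94, adjusted p = 0.269). Some dendritic cells are also known to express Itgae, and the conventional dendritic cell sum was 305.0 to 347.5 CPM in those tumor libraries and 1756 to 1964 CPM in those spleen libraries.

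Of 10 negative regulators beside the members, 3 rose in vehicle tumor CD4 cells, against 16.4% of all genes called and beside the same 10 of 11 macrophage markers. Ski, the close relative of Skil, had 42.1, 62.3 and 93.7 CPM in tumor and 15.8, 22.1 and 14.2 CPM in spleen (1.93 ± 0.45, adjusted p = 0.00671). Pmepa1, which sequesters receptor-activated SMADs, rose in both vehicle populations, by 1.40 ± 0.37 in CD4 cells (adjusted p = 0.0147), a call lost without spleen replicate 1 or 2 or tumor replicate 2 (lowest 0.84). In CD8 cells it had 116.8, 90.9 and 99.5 CPM in tumor and 16.6, 16.8 and 12.5 CPM in spleen (2.74 ± 0.38, adjusted p = 0.000143). In LCL161-treated mice the CD4 value was -0.22 ± 0.36 and did not pass. In LCL161-treated CD8 cells Pmepa1 was called higher in tumor. That call was kept in all 6 fits without 1 library, at 1.72 to 2.335 (adjusted p at most 0.0458 in edgeR's test). Fkbp1a, which holds the type I receptor inactive, was called higher in both (0.44 ± 0.14, adjusted p = 0.0415 in CD4 and 0.49 ± 0.14, adjusted p = 0.0237 in CD8), but without 1 library the call was lost in 4 of 6 fits in CD4 and in 6 of 6 in CD8 cells. Nedd4l, a ubiquitin ligase that targets SMADs, fell in tumor CD8 cells (-1.90 ± 0.46, adjusted p = 0.00842). Of 10 further receptors, Acvrl1 (ALK1) rose in tumor CD4 cells (2.57 ± 0.77, adjusted p = 0.0282) and fell in tumor CD8 cells (-2.62 ± 0.73, adjusted p = 0.0204), 1 of 10 in each, beside 16.4% and 14.8% of all genes. Without 1 library these calls were lost in 4 of 6 fits in CD4 and 3 of 6 in CD8 cells. In vehicle CD8 cells 6 of 8 conventional dendritic cell markers were called lower in tumor and 0 higher. Their part in the CD8 values of Acvrl1 and Nedd4l was not tested. None of 6 further SMADs and adaptors passed in either population, with 1 in CD4 and 2 in CD8 cells at an unadjusted p under 0.05, and DESeq2 also called none. Smad2, the partner of Smad3, had 61.0 to 83.4 CPM over all 24 libraries. In LCL161-treated mice 5 of the 11 ligand and activation genes rose and 1 fell in tumor CD4 cells, and 4 rose in tumor CD8 cells, where 21.3% and 8.77% of all genes were called and 9 and 10 of 11 macrophage markers were higher. Of the induced genes 4 rose and 1, Foxp3, was called lower in CD4 cells, and 3 rose in CD8 cells. The Foxp3 call rests on spleen CD4 replicate 2, since without it the value was 0.08 (adjusted p = 0.961), and it was also lost without tumor replicate 1 or 3. Cdkn1a, Itga1, Ltbp1 and Ltbp3 were among the risers in both, in CD4 cells in all 6 fits without 1 library and in CD8 cells in 3, 2, 2 and 2 of 6.

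**Figure D5:**
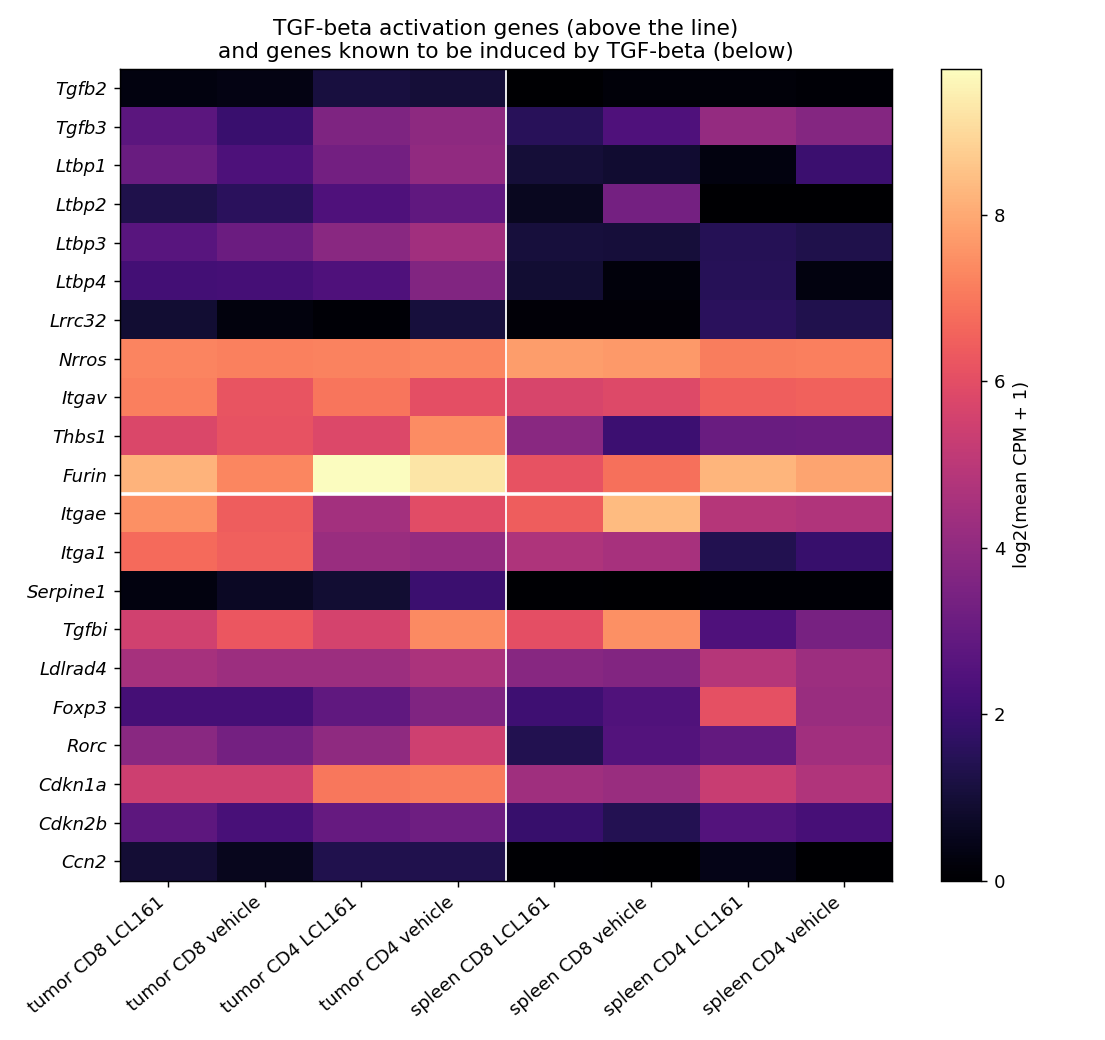
Group means of 11 ligand and activation genes (above the white line) and 10 genes known to be induced by TGF-beta (below it), as log2(mean CPM + 1), with tumor groups left and spleen groups right of the vertical line. Thbs1, Furin, Ltbp3 and Cdkn1a are brighter in the tumor CD4 groups than in the spleen CD4 groups, and Itgae is brightest in vehicle spleen CD8 cells.

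With LCL161 few of these other genes passed in a single population. In spleen CD8 cells Ltbp2, Acvr2b and Smurf1 fell. They were 1 of 11 ligand and activation genes, 1 of 10 receptors and 1 of 10 negative regulators, where 8.28% of all genes were called. Ltbp2 had 0, 1.15 and 0.393 CPM with LCL161 and 8.85, 9.64 and 8.64 CPM with vehicle (adjusted p = 0.0142). Smurf1, a ubiquitin ligase that works with SMAD7, had 31.4, 27.3 and 21.6 CPM with LCL161 and 43.1, 36.0 and 40.7 CPM with vehicle (-0.58 ± 0.17, adjusted p = 0.0394). Acvr2b, an activin receptor, had at most 2.16 CPM in these 6 libraries. Without 1 library the calls of Acvr2b and Smurf1 were lost in 5 of 6 fits each, and that of Ltbp2 without LCL161 replicate 3. The conventional dendritic cell markers moved with these genes, at 352.3 to 631.3 CPM with LCL161 and 1756 to 1964 CPM with vehicle, and their part was not tested. In spleen CD4, tumor CD4 and tumor CD8 edgeR's test called none of the 5 lists' genes. At an unadjusted p under 0.05 the lists of ligands, receptors, SMADs, negative regulators and induced genes had 2, 2, 1, 2 and 3 in spleen CD4, 3, 3, 2, 0 and 1 in tumor CD4 and 1, 0, 0, 1 and 0 in tumor CD8. DESeq2 called Ltbp1, Acvr2a, Smad1 and Tgif2 in spleen CD4, Smad4 in tumor CD4 and Tgif2 in tumor CD8. Averaged over the 4 populations, where 18.7% of all genes were called, Tgif2, the paralog of Tgif1, rose by 0.81 ± 0.13 (adjusted p = 0.000393). Its levels in tumor CD8 cells were 12.7, 9.21 and 12.3 CPM with LCL161 and 5.04, 5.05 and 5.63 CPM with vehicle. Smad5, Bmpr2 and Smurf1 fell on average (-0.47 ± 0.12, -1.13 ± 0.37 and -0.26 ± 0.08, adjusted p = 0.00925, 0.0409 and 0.0356). Without 1 library Bmpr2 lost its call in 16 of 24 fits and Smurf1 in 12 of 24, whereas Smad5 kept it in all 24. Tgfbi fell by 1.29 ± 0.34 (adjusted p = 0.0139), 1 of the 10 induced genes, beside the same 18.7% of all genes. Of 11 macrophage markers 10 were called lower in the same mean effect. The macrophage, conventional dendritic cell and B cell sums were used together as covariates, an alternative chosen after the data were seen. With them the Tgfbi value was 0.11 ± 0.33. The part of these cells in the Tgfbi difference was not tested beyond this fit.

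Over the 24 libraries, which share tissue, population and treatment, the members were compared by Pearson's r of log2 CPM as a description. The highest value between 2 members was 0.78 for Tgfbr2 and Smad3, and the lowest -0.68 for Tgfbr1 and Tgif1. Among 11863 genes searched, those most like Tgif1 were Med11, Pex16 and Elp5 (0.91, 0.90 and 0.90), and those most like Tgfb1 were Rab21, Ube2z and Ybx1 (0.89, 0.89 and 0.86). Itgb8 was most like Izumo1r, Gpm6b and Serpina9 (0.96, 0.94 and 0.93). Since Itgb8 held at most 0.389 CPM outside the spleen CD4 libraries, these values rest largely on spleen CD4 against all other libraries. Smad7 was most like Ski, Tshz1 and Gm36329 (0.87, 0.87 and 0.85), and Skil most like Rab8b, Gm20689 and Lsm14a (0.96, 0.95 and 0.93). For Tgfbr1 they were Washc4, Edem3 and Fndc3a (0.90 each), for Tgfbr2 Acly, Ppp2r5c and Cflar (0.88, 0.87 and 0.87) and for Smad3 Prex1, Svil and Ppp2r5e (0.86, 0.86 and 0.85).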

How the data were processed

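RNA of CD45+CD4+ and CD45+CD8+ cells was sequenced in 24 libraries, 8 groups of 3. The values are expected counts, 1 row a gene symbol, in a table the authors deposited. Per the submitters' processing notes, cutadapt and STAR 2.7.3a were used on GRCm38. Those notes name no counting tool, annotation or strand setting. Values were rounded, since 52.69% of those above 0 were not whole.

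Genes were kept by edgeR's filterByExpr (minimum count 10), scaled by TMM (factors 0.939 to 1.05) and fitted with one mean per group over all 24 libraries by edgeR 4.0.16 (robust quasi-likelihood) in R 4.3.3, with Benjamini-Hochberg adjustment within each of 17 comparisons. Replicates differed beyond counting error (chi-square per gene 13.0 to 134.9 over 24 pairs), so none were merged. Exon lengths and positions came from GENCODE M21. DESeq2 1.42.0, RLE scaling, no filter, a replicate block, only the groups compared, LCL161 in place of vehicle and each library left out were alternatives. For the 4 comparisons within LCL161-treated mice they were chosen after the data were seen. By the rule that every same-numbered r be over 0.1, replicate numbers paired the LCL161 tumor and spleen CD8 libraries (0.112, 0.124 and 0.166) and no other pair of groups. The marker covariates were the log2 summed CPM of the macrophage, conventional dendritic cell and B cell lists. Scripts were tested on simulated data. Figures used Python 3.11.15, pandas 2.3.3 and matplotlib 3.10.9.

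The members and gene lists were chosen with earlier results of these data known. All members are named, with up to 4 genes of each list by adjusted p in the comparisons between tissues and treatments, and the 3 most correlated genes with a mean of at least 5 CPM. Tgif2, Itgae, Foxp3, Smad2 and Xcr1 were named after their values were seen. Itgb6 and Smad9, of the lists, did not pass the filter.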

Additional observations from a re-analysis of the deposited data

Results flagged for a closer look

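The effect of LCL161 on Tgfb1 differed between spleen CD8 and spleen CD4 cells by -1.26 ± 0.23 on the log2 scale (edgeR's quasi-likelihood test, adjusted p = 0.0262). Tgfb1 averaged 82.0 ± 23.3 CPM with LCL161 and 171.4 ± 8.44 CPM with vehicle in spleen CD8 cells, and 188.7 ± 21.4 CPM with LCL161 and 164.3 ± 19.3 CPM with vehicle in spleen CD4 cells (SD, n = 3 each). All 3 treated spleen CD8 libraries were below their controls, whereas the spleen CD4 libraries overlapped. The conventional dendritic cell markers, which differed with treatment in spleen CD8 cells, summed to 82.9 to 190.1 CPM with LCL161 and 112.8 to 323.2 CPM with vehicle in spleen CD4 cells. The part of those cells in the difference of effects was not tested.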

How the results depend on the processing

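In the 13 comparisons that use vehicle libraries, 12 member results passed, those of Itgb8 against spleen CD4 cells included. None changed direction, 57 of 69 values kept their call, and 85 of 114 did with 1 library left out. For 49 other pathway results there 239 of 288 kept it, and 275 of 384 with 1 library left out. Within LCL161-treated mice, refitted by alternatives chosen after the data were seen, 40 of 48 values of 9 member results kept their call, and 38 of 54 with 1 library left out, with none reversed. For 50 other pathway results there 217 of 256 and 184 of 300 did, and Foxp3 in tumor over spleen CD4 cells ran from -4.391 to 0.08. Pmepa1 in tumor over spleen CD4 cells was -0.225 with LCL161 libraries in place of vehicle, and Tgfbi in the mean LCL161 effect was 0.106 with marker covariates. The cause of these moves was not tested. Both member tallies, with vehicle and within LCL161-treated mice, include Itgb8 against spleen CD4 cells. Those results were set aside above, since the spleen CD4 libraries alone brought Itgb8 past the filter. They kept their call in all 6 fits without 1 library in each comparison, and so add to the calls kept.

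In LCL161 over vehicle, spleen CD4 (87 genes called) had 49 without a filter, 56 with the replicate block, 0 with only the groups compared and 648 by DESeq2, and its 1 member was lost (0) without the filter, with the block, with only the groups compared and with marker covariates. Spleen CD8 (1670) had 990 without a filter, 2589 by DESeq2 and 308 with marker covariates, which left 0 members. Tumor CD4 (65) had 26 without a filter, 0 with only the groups compared, 736 by DESeq2 and 0 with marker covariates. Tumor CD8 (50) had 241 with only the groups compared, 333 by DESeq2 and 0, with 0 members, with marker covariates. The mean effect (3771) had 618, with 1 member. It has no fit with only the groups compared, since it uses all 8.

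Tumor over spleen CD4 (3307) had 885 with only the groups compared. Tumor over spleen CD8 (2986) had 1770 with LCL161 libraries, with 3 members, 5783 with only the groups compared, with 4 members, and 1 member by DESeq2. CD8 over CD4 had 3515 in spleen (2302) with LCL161 libraries, and in tumor (821) 139 with only the groups compared and 1583, with 1 member, by DESeq2. Of the differences of effect, CD4 tumor minus spleen (2) had 0 with the block, 0 with only the groups compared and 137 by DESeq2. CD8 tumor minus spleen (5) had 113 with only the groups compared and 185 by DESeq2, and 1 member, Tgfb1, in both and with the replicate block. Spleen CD8 minus CD4 (59) had 34 without a filter, 3 with only the groups compared (0 members) and 511 by DESeq2, and tumor CD8 minus CD4 (0) had 41 by DESeq2. With only the groups compared, tumor over spleen CD4 with LCL161 (4306) had 1650 and CD8 over CD4 in spleen with LCL161 (3515) had 1381, and in tumor with LCL161 (580) DESeq2 called 1206. RLE scaling moved no count by over 1.5 times.

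With 1 library left out, genes called ran from 0 to 220 in spleen CD4, 246 to 1702 in spleen CD8, 0 to 375 in tumor CD4, 4 to 42 in tumor CD8 and 2713 to 4104 for the mean effect. Members called ran from 0 to 1, 1 to 3, 0 to 0, 0 to 1 and 1 to 3 in the same order. Tumor over spleen ran from 1875 to 3293 genes and 2 to 3 members in CD4 and 1889 to 2181 genes and 0 members in CD8. CD8 over CD4 ran from 1296 to 1844 genes and 1 to 2 members in spleen, and 237 to 966 genes and 0 to 1 members in tumor. Differences of effect ran from 0 to 21 (CD4), 0 to 98 (CD8), 0 to 314 (spleen) and 0 to 1 (tumor) genes, with 0, 0 to 1, 0 to 2 and 0 members. Within LCL161-treated mice tumor over spleen ran from 2860 to 4409 genes and 2 to 5 members in CD4 and 313 to 1841 genes and 1 to 4 members in CD8, and CD8 over CD4 from 1937 to 3531 genes and 2 members in spleen and 206 to 461 genes and 0 members in tumor. Members called in tumor over spleen CD4 cells and in CD8 over CD4 cells of the spleen include Itgb8 in every fit, with vehicle and with LCL161. It was set aside in these comparisons above because of the filter.

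Same-numbered libraries deviated with r of -0.168 to 0.166. In 27 of 28 pairs of groups at least 1 of the 3 was at or under 0.1, so those numbers do not show a pairing. Beside the calls named in the text, the block changed no member call between the paired tumor and spleen CD8 groups with LCL161. At these depths (15455728 to 25145426 counts) the library sizes put 3 counts at 0.129 to 0.18 CPM per library, which limits Itgb8 outside spleen CD4 cells.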
